A study of Mus musculus with 6 samples.

Results

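The 9 genes Drd1, Drd2, Adora2a, Ppp1r1b, Rgs9, Pde10a, Pde1b, Sh3rf2 and Rarb, which are abundant in striatal projection neurons and mostly serve dopamine signalling, were followed in RNA of mouse cerebral cortex. They were chosen by name, as every non-control probe of the array whose gene name was one of the 9 (Drd1a for Drd1), out of 27670 genes on the array. All 9 were on the array, with 13 probes: 5 genes had 1 probe and 4 had 2. Where a gene had several probes, the brightest was used, and each of these 9 probes was well above background on all 6 arrays.

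The study set cortex of male mice lacking Cux2, a CUT-domain homeobox factor of upper-layer cortical neurons, against cortex of male controls, with 3 samples in each group and 1 single-colour Agilent array per sample. The controls (numbers 15, 62 and 16) have a wild-type title but a genotype label of Cux2+/-, so whether they carry 1 mutant allele cannot be told from the labels. The other samples (numbers 53, 48 and 54) carry a Cux2 knock-out title and are called knock-outs here. Age, strain and the area of cortex taken are not given in the sources used here. Separate animals are not stated either, so the p-values reflect the spread of these samples alone, which may in part be technical.

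Dopamine reaches the striatum from the midbrain and acts there on projection neurons of a direct pathway, which carry the D1 receptor, and of an indirect pathway, which carry the D2 receptor and the adenosine receptor encoded by Adora2a. D1 and these adenosine receptors raise cyclic AMP through the olfactory-type G protein and adenylyl cyclase 5, and D2 receptors lower it. Phosphodiesterases break cyclic nucleotides down, DARPP-32 turns the cyclic AMP signal into inhibition of protein phosphatase 1, and RGS9 ends G-protein signals. The striatum lies directly under the cortex, separated from it by white matter, and several of these genes are also transcribed in cortical neurons at lower levels.

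The arrays resembled each other closely. Between 59.2% and 73.3% of spots were well above background, and the correlation of log2 signals over tested probes was 0.991 to 0.994 within groups and 0.988 to 0.991 between them. The brighter Cux2 probe read -0.035, 0.27 and 0.032 in the controls and -0.041, -0.045 and -0.0092 in the knock-outs (difference -0.12, limma adjusted p = 0.838), so that it did not tell the groups apart. Where this probe lies relative to the deleted part is not stated by the labels or files used, and it therefore checks nothing about the labels. All 12 tested markers of cortical excitatory neurons were well above background on all 6 arrays, which fits the labelled tissue.

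Promoter sequence is shown for the receptor genes Drd1 and Drd2 and for Rarb, the member with a described response element. RefSeq windows (build GRCm38.p6) were used for 6 of the 9 genes, with 10 start sites, and none were used for Adora2a, Ppp1r1b or Sh3rf2. The 250 bases before each start were searched on both strands for GGGCGG (the GC box), TATAAA and TGACGTCA (the cyclic AMP response element). The search also took in 2 forms of the DR5 element, a direct repeat with 5 bases between its units that retinoic acid receptors bind. The windows of Drd1 (chr13:54054781-54055030, minus strand), Drd2 (chr9:49340153-49340402, plus strand) and Rarb (chr14:16575477-16575726, minus strand) read as follows (Drd1 at 1 of its 2 start sites, the other holding no searched motif), with matched motifs in capitals.
Drd1: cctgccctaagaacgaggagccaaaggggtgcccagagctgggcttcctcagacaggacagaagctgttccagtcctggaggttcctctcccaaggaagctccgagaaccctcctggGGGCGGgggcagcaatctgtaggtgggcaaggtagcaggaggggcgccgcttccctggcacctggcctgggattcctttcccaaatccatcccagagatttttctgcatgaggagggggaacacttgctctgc
Drd2: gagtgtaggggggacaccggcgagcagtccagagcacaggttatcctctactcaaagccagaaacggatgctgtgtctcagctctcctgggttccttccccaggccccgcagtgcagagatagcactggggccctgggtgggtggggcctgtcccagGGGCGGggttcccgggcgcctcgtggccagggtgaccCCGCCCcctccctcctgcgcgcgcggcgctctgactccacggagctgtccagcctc
Rarb: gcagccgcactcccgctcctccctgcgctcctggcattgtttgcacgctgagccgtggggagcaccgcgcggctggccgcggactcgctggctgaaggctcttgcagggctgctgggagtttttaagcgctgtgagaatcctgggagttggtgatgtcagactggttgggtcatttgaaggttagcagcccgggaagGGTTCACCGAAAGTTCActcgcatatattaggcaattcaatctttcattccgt

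The capitals mark 1 GC box in the Drd1 window, 133 to 128 bases before the start, and 2 in the Drd2 window, of which the one nearer the start is on the opposite strand. The capitals of Rarb, a gene known for a retinoic acid response element in its own promoter, mark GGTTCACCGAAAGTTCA, 53 to 37 bases before the start. That stretch is the form with the units GGTTCA and AGTTCA, which was searched as the Rarb type of the element. The match in Rarb therefore follows from the choice of form and is no finding. Of 32851 RefSeq windows of this length, 2 hold it (0.00609%), the Rarb window among them. The form with AGGTCA as both units occurred in 0.00913% of windows and in no window of a member. A GC box stood in 5 of the members' 10 windows, against 32.7% of all windows. TATAAA was found only in the window of Rgs9 (12.4% of all windows hold it), and TGACGTCA in none of the members' windows (1.55% of all). These matches describe letters and not occupied sites.

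All 9 genes had a lower mean signal in the knock-outs than in the controls, by 0.30 to 0.77 on the log2 scale, and none of these differences passed the test. The background was 0.128% of 17126 tested genes with an adjusted p under 0.05, so 0 of 9 was the usual count. In direction, 9 of 9 differences were negative, against 51.8% of all genes. The mean over the 9 genes was -0.50 and the median -0.44, against a median of -0.01 over all tested genes. Since this is bulk tissue, fewer cells of a type and less RNA per cell cannot be told apart. Signals are given throughout as log2 of the processed signal minus the array's 75th percentile, so that 0 is the brightness of that percentile, and levels are compared between arrays and never between probes.

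**Figure D1:**
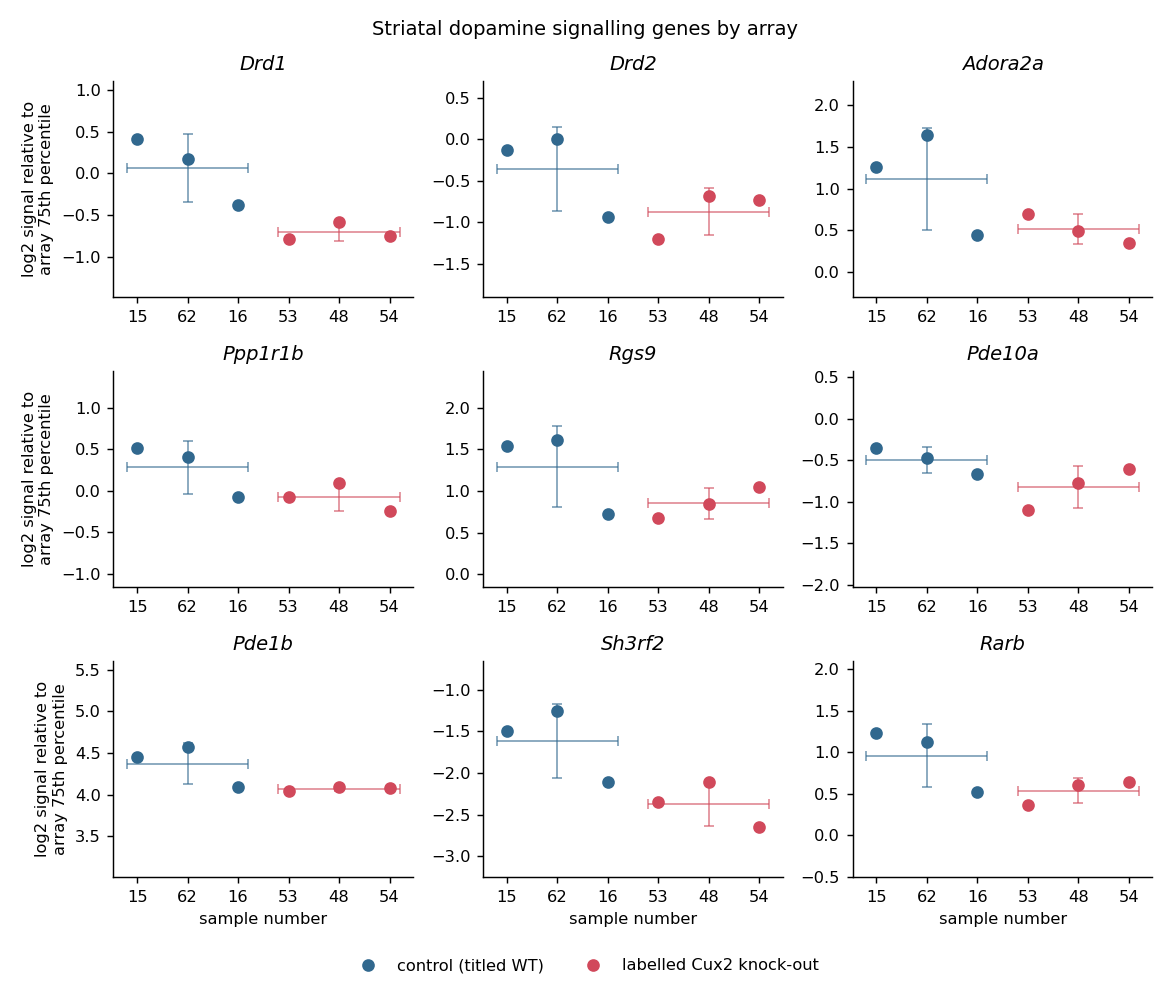
Log2 signal of the brightest probe of each of the 9 genes, relative to the array's 75th percentile, on the 3 control arrays (blue; sample numbers 15, 62 and 16) and the 3 knock-out arrays (red; 53, 48 and 54), with the group mean and SD as lines. In all 9 panels controls 15 and 62 stand above the other 4 arrays, while control 16 lies within the range of the knock-outs in 7 panels.

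Among the receptors, Drd1, which encodes the D1 receptor that raises cyclic AMP, read 0.41, 0.17 and -0.38 in controls 15, 62 and 16 and -0.79, -0.58 and -0.75 in knock-outs 53, 48 and 54. Every knock-out array lay below every control array, and control 16 was the control nearest to them. The difference was -0.77 (SE 0.20, 95% interval -1.25 to -0.29, n = 3 per group, limma adjusted p = 0.393), which puts the knock-out level at 58.6% of the control level (ratio of geometric means). This was the largest of the 9 differences.

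Drd2 encodes the D2 receptor, which lowers cyclic AMP and marks the indirect pathway. Its brighter probe read -0.13, -0.0031 and -0.93 in controls 15, 62 and 16 and -1.20, -0.69 and -0.73 in knock-outs 53, 48 and 54. Controls 15 and 62 were the highest, and control 16 fell between knock-outs 53 and 54, so the groups overlapped. The difference was -0.52 (SE 0.27, 95% interval -1.16 to 0.12, n = 3 per group, limma adjusted p = 0.714), or 69.9% of the control level, and it was -0.34 without control 62 and -0.81 without control 16. The second Drd2 probe gave -0.30 (limma adjusted p = 0.892), again with controls 15 and 62 above the other arrays.

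Adora2a encodes the adenosine receptor of the same indirect-pathway neurons. The brighter of its probes read 1.26, 1.64 and 0.44 in controls 15, 62 and 16 and 0.70, 0.49 and 0.35 in knock-outs 53, 48 and 54. Controls 15 and 62 stood well apart from the other arrays, and control 16 lay between knock-outs 48 and 54. The difference was -0.60 (SE 0.30, 95% interval -1.31 to 0.11, n = 3 per group, limma adjusted p = 0.700), or 66.0% of the control level. The second Adora2a probe did not share this order: it read -0.13, -0.011 and -0.15 in controls 15, 62 and 16 and 0.064, 0.0033 and -0.11 in knock-outs 53, 48 and 54, a difference of 0.083 (limma adjusted p = 0.882). With the mean of both probes in place of the brighter one, the Adora2a difference was -0.26, so its size depends on the probe. For the brighter probe it was -0.34 without control 62 and -0.94 without control 16.

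Of the genes that act inside the cell on receptor signals, Ppp1r1b encodes DARPP-32, the inhibitor of protein phosphatase 1. It read 0.52, 0.40 and -0.077 in controls 15, 62 and 16 and -0.072, 0.10 and -0.24 in knock-outs 53, 48 and 54. Control 16 and knock-out 53 were nearly equal, and knock-out 48 lay above control 16, so the groups overlapped. The difference was -0.35 (SE 0.17, 95% interval -0.77 to 0.065, n = 3 per group, limma adjusted p = 0.701), or 78.3% of the control level, and it was -0.23 without control 15 and -0.53 without control 16.

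Rgs9 encodes a regulator that speeds the turn-off of G proteins and, as its long splice form, is typical of striatum. It read 1.54, 1.61 and 0.73 in controls 15, 62 and 16 and 0.67, 0.84 and 1.05 in knock-outs 53, 48 and 54. Control 16 lay below knock-outs 48 and 54. The difference was -0.44 (SE 0.25, 95% interval -1.03 to 0.15, n = 3 per group, limma adjusted p = 0.737), or 73.7% of the control level, and it was -0.28 without control 62 and -0.72 without control 16.

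The phosphodiesterases showed the smallest differences. Pde10a, the dual-specificity enzyme that breaks down cyclic AMP and cyclic GMP in striatal projection neurons, read -0.36, -0.47 and -0.67 in controls 15, 62 and 16 and -1.10, -0.78 and -0.60 in knock-outs 53, 48 and 54. Knock-out 54 lay above control 16, and knock-out 53 was the lowest array. The difference was -0.33 (SE 0.15, 95% interval -0.69 to 0.031, n = 3 per group, limma adjusted p = 0.657), or 79.6% of the control level, and it was -0.19 without knock-out 53. Its second probe differed by -0.069 (limma adjusted p = 0.980), and the mean of both probes by -0.20. On that second probe controls 15 and 62 were above the other arrays and control 16 was the lowest array, at -3.76.

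Pde1b encodes a phosphodiesterase that calcium and calmodulin activate, and it is transcribed in cortex as well as striatum. It read 4.45, 4.57 and 4.10 in controls 15, 62 and 16 and 4.04, 4.09 and 4.08 in knock-outs 53, 48 and 54. The knock-out arrays were almost the same as each other (SD 0.028), and all 3 lay below control 16, if only narrowly. The difference was -0.30 (SE 0.13, 95% interval -0.61 to 0.013, n = 3 per group, limma adjusted p = 0.642), or 81.3% of the control level, and it was -0.20 without control 62. Drd1 and Pde1b were the only members whose groups did not overlap, 2 of 9 (22.2%), where 7.2% of all genes had every knock-out array below every control array.

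Sh3rf2 encodes a protein with SH3 and RING domains. Its probe read -1.49, -1.26 and -2.11 in controls 15, 62 and 16 and -2.34, -2.11 and -2.65 in knock-outs 53, 48 and 54. Control 16 and knock-out 48 had the same signal to 2 decimals, controls 15 and 62 were higher and the other knock-outs lower. The difference was -0.75 (SE 0.24, 95% interval -1.33 to -0.17, n = 3 per group, limma adjusted p = 0.516), or 59.5% of the control level, close in size to that of Drd1. With normexp background correction it was -0.31.

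Rarb encodes retinoic acid receptor beta, a nuclear receptor that takes part in the making of striatal projection neurons. Its bright probe was printed 10 times on each array, with an SD over spots of 0.059 to 0.071, which covers error within an array and not that of labelling or hybridisation. Its means read 1.23, 1.12 and 0.53 in controls 15, 62 and 16 and 0.36, 0.60 and 0.64 in knock-outs 53, 48 and 54. Control 16 lay below knock-outs 48 and 54. The difference was -0.42 (SE 0.20, 95% interval -0.89 to 0.045, n = 3 per group, limma adjusted p = 0.663), or 74.6% of the control level, and it was -0.64 without control 16. The second Rarb probe was well above background on 2 control arrays and 1 knock-out array and was not tested.

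**Figure D2:**
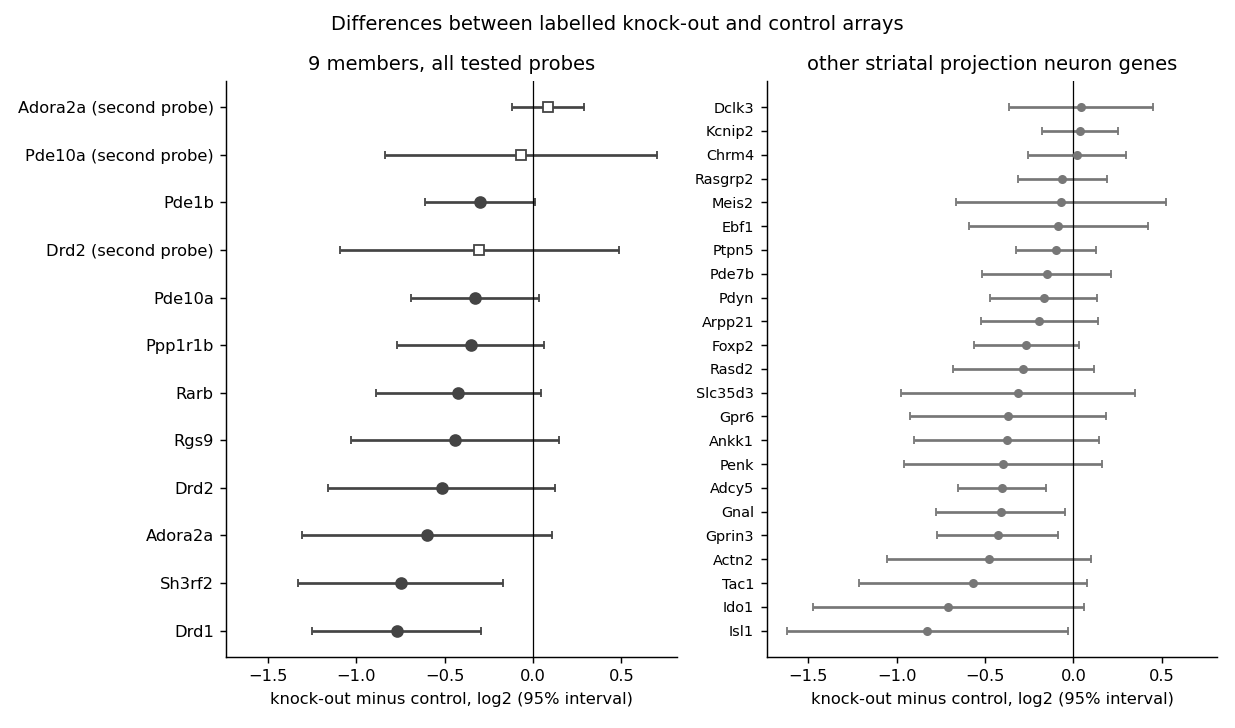
Knock-out minus control difference (log2, with the 95% interval of the limma fit) for every tested probe of the 9 genes (left; open squares are second probes) and for 23 of the 24 other striatal projection neuron genes tested (right). All 9 filled circles lie below 0, from -0.77 for Drd1 to -0.30 for Pde1b, and the second Adora2a probe lies at 0.08.

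By role, the mean difference was -0.63 for the 3 receptors, -0.40 for Ppp1r1b and Rgs9, -0.31 for the phosphodiesterases and -0.59 for Sh3rf2 and Rarb. These are descriptions, and the intervals of the single genes overlap widely. At an unadjusted p under 0.05 with limma, 2 of 9 genes were lower (Drd1 and Sh3rf2, 22.2%), against 4.38% of all genes, and 4 of 9 lay below -0.5, against 2.58%.

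The spread was unequal between groups. In 8 of 9 genes the SD over the control arrays was larger than over the knock-out arrays, Pde10a being the exception. The median SD of the members was 0.40 over controls and 0.18 over knock-outs, whereas over all genes it was 0.14 and 0.10. Control 62 was the highest array for 5 genes (Drd2, Adora2a, Rgs9, Pde1b and Sh3rf2) and control 15 for the other 4. Knock-out 53 was the lowest for 6 genes and knock-out 54 for Adora2a, Ppp1r1b and Sh3rf2.

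The 9 genes therefore moved from array to array in much the same order. Averaged over genes, the deviation from each gene's own mean over 6 arrays was 0.45, 0.49 and -0.19 in controls 15, 62 and 16 and -0.34, -0.16 and -0.25 in knock-outs 53, 48 and 54. Control 16 thus fell among the knock-outs. The mean profile held 81.9% of the members' sum of squares between arrays. The group labels held 49.4% of it and the slide 3.88%. Controls 15 and 62 were above all other arrays in 9 of 9 genes, an order read from the values themselves, which 10.2% of all genes showed.

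Single arrays weighed heavily on the difference. Without control 16 the members' mean difference was -0.72 and all 9 genes had an unadjusted p under 0.05 (4.47% of all genes), yet none passed the adjusted test (0.0117% of all genes did), and the lowest adjusted p was 0.148, for Drd1 (limma). Without control 15 or control 62 the mean was -0.40 or -0.38, and 1 of 9 genes had an unadjusted p under 0.05 in each case. Over all genes, 975 of 18193 without control 15 and 704 of 17250 without control 62 were lower at that threshold. The arrays came from 2 slides, each holding both groups: slide 1 held control 15 with knock-outs 48 and 54, and slide 2 the others. The mean difference was -0.65 within slide 1 and -0.49 within slide 2, and -0.57 with slide as a block, where 5 of 9 genes had an unadjusted p under 0.05 (4.63% of all genes) and none passed the adjusted test.

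**Figure D3:**
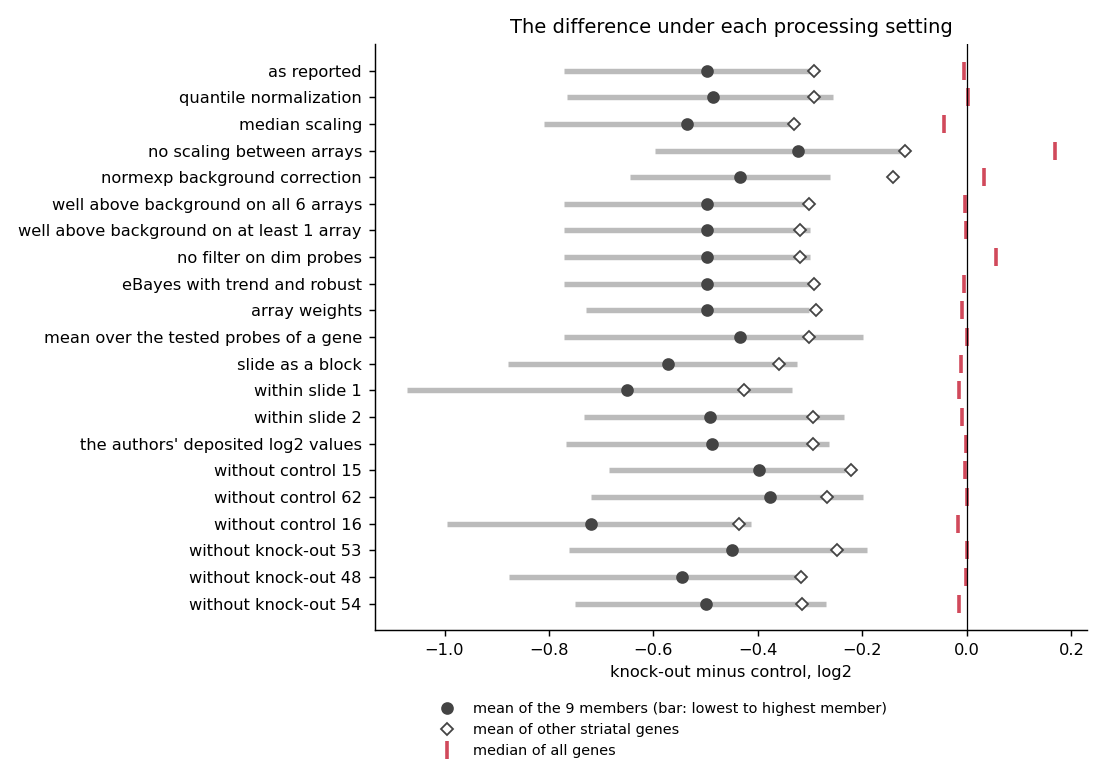
Knock-out minus control difference (log2) under the reported processing and 20 alternatives: mean of the 9 genes (filled circle) with the range over genes (bar), mean of the other striatal genes (diamond) and median of all genes (red tick). The mean of the 9 genes stays below 0 throughout, from -0.72 without control 16 to -0.32 without scaling between arrays, where the median of all genes moves to 0.17.

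The same order across arrays was then looked for in 32 other genes of striatal projection neurons, of which 27 were on the array and 24 were tested. Of these 24, 21 (87.5%) were lower in the knock-outs and 3 higher, against 51.8% lower over all genes. None of the 24 passed the limma test at adjusted p under 0.05. At an unadjusted p under 0.05 with limma, 4 (16.7%) were lower, against 4.38% of all genes. The mean difference was -0.29 (-0.14 with normexp background correction and -0.12 without scaling) and the median -0.30. Their mean deviation was 0.32, 0.25 and -0.14 in the controls and -0.24, -0.10 and -0.10 in the knock-outs. Controls 15 and 62 were above the other arrays in 17 of 24 (70.8%), against 10.2% of all genes. Control 16 again lay among the knock-outs.

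Adcy5, the adenylyl cyclase on which the D1 and Adora2a receptors act, read 1.33, 1.41 and 1.19 in controls 15, 62 and 16 and 0.75, 0.98 and 0.98 in knock-outs 53, 48 and 54. Its groups did not overlap (difference -0.40, limma adjusted p = 0.386). Every knock-out array lay below every control array in 2 of the 24 other striatal genes (8.33%), close to the 7.2% of all genes. Gnal, the olfactory-type G-protein subunit that couples these receptors to the cyclase, differed by -0.41 (limma adjusted p = 0.579). The transcription factors Isl1 and Foxp2 differed by -0.83 and -0.27 and the tachykinin precursor Tac1 by -0.57, with limma adjusted p-values of 0.612, 0.672 and 0.676. Gprin3 and Ido1 differed by -0.43 and -0.71 (limma adjusted p = 0.521 and 0.655).

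Genes of the direct and of the indirect pathway were also set side by side, a grouping made after their values were seen. Of 6 direct-pathway genes (Drd1, Pdyn, Tac1, Chrm4, Isl1 and Ebf1), 5 were lower, with a mean difference of -0.40. All 4 indirect-pathway genes (Drd2, Adora2a, Penk and Gpr6) were lower, with a mean of -0.47. Control 16 had a mean deviation of -0.10 over the direct-pathway genes and -0.31 over the indirect-pathway genes. The difference between the pathways was not tested.

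A further list took in other genes of dopamine synthesis, breakdown, reception and signalling. Of 23 tested, 15 were lower and 8 higher, none passed the limma test, the median difference was -0.07 and the mean -0.04. At an unadjusted p under 0.05 with limma, 1 was lower (4.35%), against 4.38% of all genes. Controls 15 and 62 were above the other arrays in 3 of 23 (13%; Ddc, Maob and Gng7), close to the 10.2% of all genes. The gene with an unadjusted p under 0.05 was Gng7, the G-protein gamma subunit that pairs with the olfactory-type subunit in striatum, at -0.35 (limma adjusted p = 0.561). Genes with the next lowest p-values included Prkar2b, a regulatory subunit of protein kinase A (-0.25), the monoamine oxidases Maob (-0.23) and Maoa (-0.10), Ppp2r5d, a phosphatase subunit that acts on DARPP-32 (-0.12), Creb1, the cyclic AMP response element-binding factor (-0.13), and Ddc, which makes dopamine from its precursor (-0.22).

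Of the remaining dopamine receptor genes, named outside the rule for their family, Drd4 differed by 0.22 and Drd5 by -0.08 (limma adjusted p = 0.860 and 0.925), and Drd3 was well above background on no array. The Drd5 product is a D1-like and the Drd4 product a D2-like receptor; whether their differences depart from those of Drd1 and Drd2 was not tested.

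The lists for other cells and tissues showed which markers moved with the members. Cortical excitatory neuron markers, 5 of 12 lower and 7 higher with a mean difference of -0.01 and a range from -0.52 (Fezf2, a deep-layer factor) to 0.17 (Lamp5), had mean deviations between -0.040 and 0.062 on the 6 arrays, and their summed linear level was 38.2 to 42.1 in controls and 40.3 to 41.8 in knock-outs. Interneuron markers, 7 of 8 lower, had a mean difference of -0.05. The members' own summed level was 34.3, 36.7 and 24.7 in controls 15, 62 and 16 and 23.6, 25.0 and 24.7 in the knock-outs. Most of that sum came from the bright probe of Pde1b, which is also transcribed in cortex. Its linear level was 21.8, 23.8 and 17.1 in these controls and 16.5, 17.1 and 16.9 in knock-outs 53, 48 and 54. On average, the level of cortical neuron markers stayed nearly flat over arrays on which the members varied. Single markers did not all do so: 2 of 12 (Fezf2 and Rasgrf2, 16.7%) were lower at an unadjusted p under 0.05 with limma, against 4.38% of all genes. In 2 of 12 every knock-out array lay below every control array, against 7.2% of all genes. In another 2 every knock-out array lay above every control array, against 1091 of 17126 genes.

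Markers of tissue next to the striatum gave mixed values. The septum and pallidum list, 4 of 5 lower with a mean of -0.26, was highest on control 15 (mean deviation 0.56) and near its mean on control 62 (0.057), with a summed level of 2.93 to 4.66 in controls and 2.82 to 3.77 in knock-outs. Its defining cholinergic gene Chat was well above background on no array. Slc5a7 of the same list was well above background on all 6, at -0.68 (limma adjusted p = 0.476). Its knock-out arrays all lay below its control arrays, as in 1 of 5 genes of this list (20%) and 7.2% of all genes. Lhx8 differed by -0.80 and Gbx1, the 1 gene that was higher, by 0.40. Claustrum and endopiriform markers, 4 of 5 lower with a mean of -0.26, were as high on control 16 as on control 15 (0.23 and 0.22), with a summed level of 20.4 to 22.0 in controls and 17.5 to 19.7 in knock-outs. Of these 5, 2 (Gnb4 at -0.54 and Nr4a2 at -0.31) were lower at an unadjusted p under 0.05 with limma, against 4.38% of all genes. In the same 2 every knock-out array lay below every control array, against 7.2% of all genes. None passed the adjusted test. Thalamus and hippocampus markers had mean differences of -0.09 and 0.05.

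Microglia markers were lower in the knock-outs in 8 of 8 genes (mean -0.51), none past the adjusted limma test, and 7 of 8 at an unadjusted p under 0.05. Over all genes these shares were 51.8% lower and 4.38% lower at an unadjusted p under 0.05. Their mean deviation was 0.23, 0.092 and 0.45 in controls 15, 62 and 16, and their summed level 30.1, 27.0 and 35.0, against 20.7 to 22.1 in knock-outs. Control 16, the lowest control for the striatal genes, was the highest for microglia genes, and 0 of 8 microglia genes had controls 15 and 62 above the other arrays. That order held in 2 of 5 astrocyte, 2 of 5 septum and pallidum, 2 of 6 thalamus and 2 of 8 interneuron genes. It held in 1 of 5 hippocampus, 1 of 6 oligodendrocyte and 1 of 12 cortical excitatory neuron genes. It held in 0 of 5 claustrum and endopiriform and 0 of 4 olfactory bulb genes, against 10.2% of all genes. Astrocyte markers were lower in 5 of 5 genes (mean -0.26), 2 of them at an unadjusted p under 0.05 with limma. In 3 of the 5 every knock-out array lay below every control array, against 7.2% of all genes. Oligodendrocyte markers were lower in 4 of 6 genes (mean -0.09). What part the amount of striatum in a sample, or any of these cell types, has in the members' differences was not tested.

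**Figure D4:**
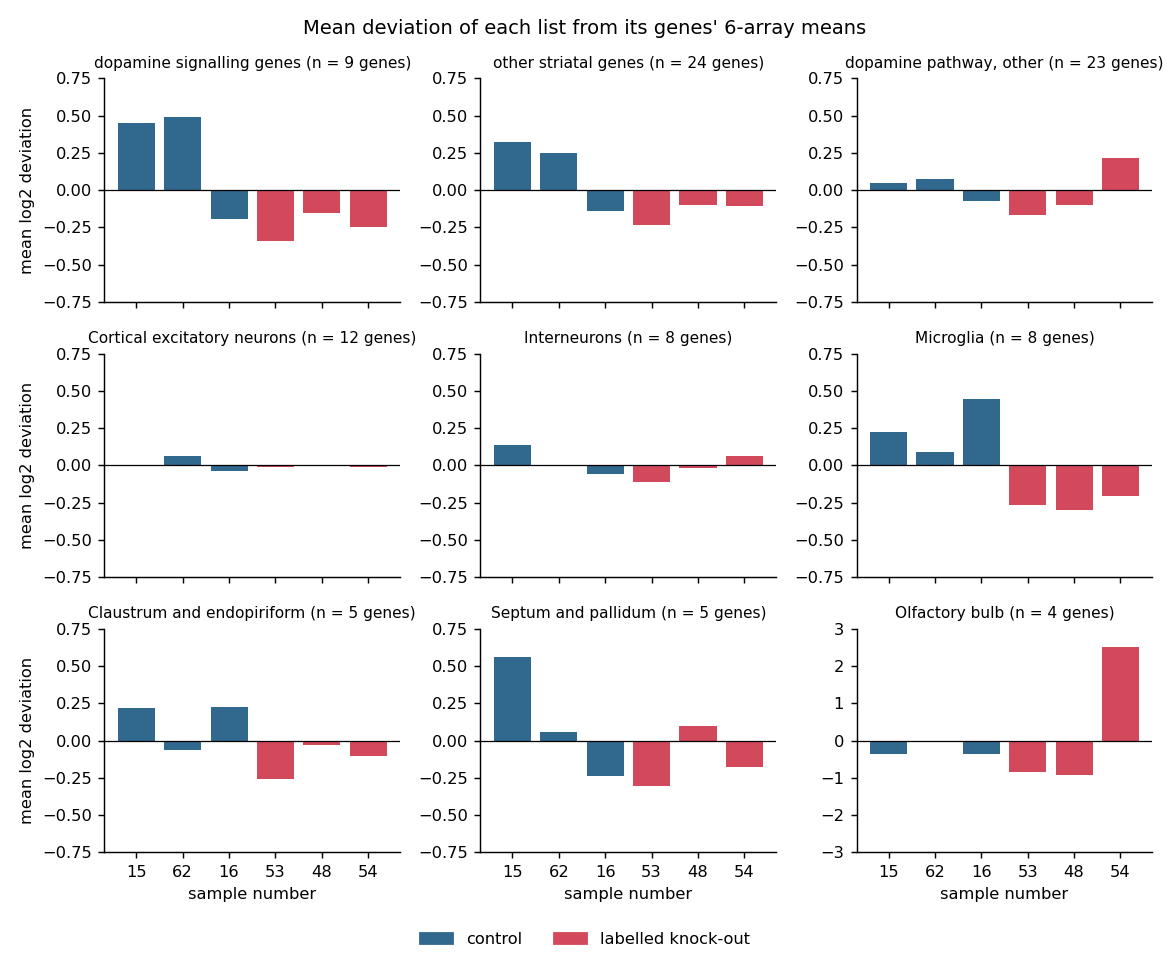
Mean deviation (log2) of each gene list from its genes' own means over the 6 arrays, by sample number, for controls (blue) and knock-outs (red); the olfactory bulb panel has a wider axis than the others. The 9 dopamine signalling genes and the other striatal genes are above 0 on controls 15 and 62 only, cortical excitatory neuron markers stay between -0.040 and 0.062, and microglia markers are highest on control 16.

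Finally, genes were ranked by how closely their deviations on the 6 arrays followed the members' mean profile (root mean square difference, log2, over 17068 ranked genes with a median of 0.355). Outside the members the closest genes included Gpr17 (0.058), a receptor of maturing oligodendrocyte precursors, Prss37 (0.090), Mmel1, Dusp12, Crybg3, Myo3b and Penk, the enkephalin precursor of indirect-pathway neurons (0.111). Penk read 6.27, 6.02 and 5.35 in the controls and 5.32, 5.63 and 5.50 in the knock-outs, with control 16 among the knock-outs. The members themselves ranked from 3 (Rarb) and 12 (Rgs9) to 173 (Pde10a) and 219 (Adora2a). The likeness rests on 6 arrays, and the profile was built from the members, so it describes them and carries no test.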

How the data were processed

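Per the file headers, Agilent Feature Extraction 9.1.3.1 read the spots, and the deposited processed signal is an intensity, background-subtracted within each array. The mean signal and the local background median are deposited intensity values without that correction. A further table deposited by the authors holds log2 values, in which each column ranked as its own array and had a median of 6.75, and whose scaling is otherwise not stated.

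From these files, 1639 control spots of 45018 and 120 outlier-flagged spot values were left out, and spots of one probe were averaged. The log2 processed signal was scaled to each array's 75th percentile. Tests covered probes well above background on every array of the controls, of the knock-outs or of both (25516 probes, 17126 genes by their brightest probe). Probe names were updated through a RefSeq gene table. Groups were compared with limma 3.58.1 (lmFit, eBayes) under R 4.3.3, and p-values were adjusted by Benjamini-Hochberg across all probes tested, with a threshold of 0.05. The fit was checked on simulated data. Figures were drawn with matplotlib 3.10.9.

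The members and lists were chosen with earlier results of these data known. All members were named, with up to 8 genes of lowest p from the 2 lists nearest to them, up to 4 from each other list, and the 8 genes closest to the members' mean profile, except that some genes this rule chose are not reported here. Alternatives changed scaling, background correction, the filter, the variance model, array weights, probe averaging, slide and arrays used.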

Additional observations from a re-analysis of the deposited data

How the results depend on the processing

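All 9 genes stayed lower in the knock-outs under each of 20 alternatives, and none passed the adjusted limma test in any of the 18 that had a test. The number of members lower at an unadjusted p under 0.05, 2 as reported, ranged from 1 to 9 over these 18. Over all genes the same count, 750 of 17126 as reported, ranged from 77 of 17126 with normexp background correction to 975 of 18193 without control 15. The members' mean difference lay between -0.72 and -0.32, and that of the other striatal genes stayed negative too. The number of other striatal genes that were lower, 21 of 24 as reported, was 17 of 24 with normexp background correction and 15 of 24 without scaling. The count of members below 0 was added as a result after the data were seen. Without scaling between arrays the median of all genes moved to 0.17, while the members' mean was -0.32 and Pde1b, Pde10a and Ppp1r1b read -0.12, -0.15 and -0.18; relative to that median all 9 lay lower still.

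The count of probes past the adjusted threshold over the whole array, 33 as reported, was less stable. It was 0 with normexp background correction (limma; 113 genes at an unadjusted p under 0.05), 3 with a filter of well above background on at least 1 array, 2 with no filter on dim probes and 15 with slide as a block. Leaving out 1 array gave 2 to 62 probes: 2 without control 15, 2 without control 16, 62 without knock-out 53 and 13 without knock-out 54. The cause was not tested. With 3 arrays per group their number limits the precision, and within a slide a group has as few as 1 array, so those values have no test. No paired analysis was possible because no replicate number is shared between the groups.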

Other observations

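Th, which encodes tyrosine hydroxylase, the first enzyme of dopamine synthesis, had 1 outlying array among the dopamine genes and was named after its values were seen. It read -3.78, -3.42 and -3.78 in controls 15, 62 and 16 and -4.57, -4.28 and -0.38 in knock-outs 53, 48 and 54. Knock-out 54 alone was high, and the group difference was 0.59 (limma adjusted p = 0.943). Slc6a3, the dopamine transporter gene, was likewise highest on knock-out 54, at -2.22, and was well above background on 3 control arrays and 1 knock-out array.

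Markers of the olfactory bulb, whose periglomerular cells make dopamine, were high on the same array. The 4 tested genes had a mean deviation of 2.51 on knock-out 54 and between -0.92 and -0.033 on the other 5 arrays. Cdhr1, a mitral and tufted cell gene, read 1.38 on knock-out 54 and -2.09 to -1.27 elsewhere. Doc2g, also typical of these cells, read 1.94 there and -1.86 to -0.56 elsewhere. On average, the striatal genes did not follow this array. The mean deviation on knock-out 54 was -0.25 for the members and -0.10 for the other striatal genes, each within the range of the other knock-outs. Single genes differed: Meis2 of the other striatal genes, named after its values were seen, read 4.15 on knock-out 54 and 3.39 to 4.10 elsewhere. Whether olfactory bulb tissue has a part in the Th and Slc6a3 values of knock-out 54 was not tested.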
